A study of Mus musculus with 20 samples.

Results

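The net state of melb-a cells that carry a hairpin against Hira was measured against parental cells that never met a virus. Of the series' 20 libraries, 12 entered this contrast: 4 parental, 4 labelled shHIRA I and 4 labelled shHIRA II, and the contrast was the mean of both shHIRA groups minus parental. The other 8 libraries, 4 with a hairpin against luciferase (shLuciferase) and 4 with a scrambled hairpin (shScramble), were used to ask, for each changed gene, whether the control hairpins already stood on the same side of parental, were not called, or stood on the opposite side. melb-a is an immortal line of mouse melanoblasts, the embryonic precursors of pigment cells, labelled wild type in every group and grown with serum, stem cell factor and Fgf2. All groups except parental were exposed to lentivirus with polybrene and selected with puromycin, so every shHIRA effect against parental includes virus, hairpin and selection. Poly(A) RNA was sequenced from bulk cultures, in which fewer cells of a type and less RNA per cell cannot be told apart. Each group had 4 libraries, described as independent by the submitters.

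HIRA is a chaperone that places the histone variant H3.3 into chromatin outside of DNA replication, together with its partners UBN1 and CABIN1. Melanoblasts depend on the transcription factors MITF, SOX10 and PAX3 and on the receptor KIT. MITF in turn drives the genes of melanin synthesis and of the melanosome. Lentivirus and short hairpin RNA are known to be able to set off the interferon response of a cell, which is why a contrast with untouched cells and a contrast with control hairpins can give different answers.

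Library totals ran from 14952948 to 20669874 estimated counts, and 13541 of 29956 genes passed the filter on low counts. Within a group, libraries correlated at 0.879 or above, with the lowest value in shHIRA I. The library labelled shHIRA I replicate 3 stood apart from its group: mitochondrial mRNA made up 1.23% of its counts, against 5.74% to 9.58% in the other 3. In parental cells this share was 7.17% ± 1.40 (SD, n = 4), and over the 8 shHIRA libraries it was 4.94% ± 2.46, a difference of -2.23 percentage points (two-sided exact permutation test, p = 0.127, adjusted p = 0.191 over 3 comparisons). For shHIRA II alone the share was 4.19% ± 0.876 (exact permutation p = 0.0286, the smallest that 4 against 4 can give, adjusted p = 0.0857). What this share contributes to the results was not tested beyond the fits named with them.

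Hira itself (ENSMUSG00000022702.16, a protein-coding gene on the plus strand of chromosome 16, from 18877037 to 18970309 in GRCm38) was measured first. In CPM, counts scaled to library size, it stood at 85.3, 84.4, 81.9 and 101 in the parental libraries, at 63.7 to 89.8 in the 8 control hairpin libraries, at 45.4, 26.6, 41.8 and 33.3 with shHIRA I and at 63.2, 63.3, 70.9 and 69.8 in the libraries labelled shHIRA II. All 8 shHIRA libraries were below all parental ones, but shHIRA II overlapped the control hairpins. Hira fell by 0.83 ± 0.13 on the log2 scale in the net contrast (log2 fold change ± SE, edgeR quasi-likelihood test with Benjamini-Hochberg adjustment over all genes tested, adjusted p = 0.000239). It fell by 1.26 ± 0.16 with shHIRA I alone (adjusted p = 4.63e-05), whereas its difference was -0.40 ± 0.16 with shHIRA II alone, which edgeR did not call (adjusted p = 0.0618). The second group is therefore named by its label, and directions drawn from it are those of libraries in which Hira was not clearly lowered against parental. Of the 10 genes listed for the HIRA complex and H3.3, all tested, 2 rose and 2 fell, beside 12.5% and 12% of all genes tested, with a median log2 fold change of -0.13 that turned to 0.03 with limma on log2(TPM + 1). Besides Hira the one that fell was H3f3a, which encodes H3.3 (-0.43 ± 0.11, adjusted p = 0.0078), and the ones that rose were Daxx, an H3.3 chaperone of another pathway (0.86 ± 0.17, adjusted p = 0.00119), and Asf1a, which hands H3 to HIRA (0.74 ± 0.20, adjusted p = 0.0104). Daxx had risen in the control hairpin cells as well (0.62 ± 0.17, adjusted p = 0.0444).

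In the net state 3316 genes were called at an adjusted p under 0.05: 1691 rose, which is 12.5% of the genes tested, and 1625 fell, which is 12% of them. Of these, 1041 were more than 2-fold higher and 430 more than 2-fold lower, and the median of all genes tested was 0.01. With limma on log2(TPM + 1), where TPM are the deposited values scaled for transcript length and depth and 1 is the pseudocount, 2444 rose and 806 fell, so that 75.2% of the calls were higher against 51% in the count test, and the median of all genes moved to 0.12. Each hairpin alone gave unequal numbers: 16.8% of genes were called for shHIRA I against parental and 29.3% for the libraries labelled shHIRA II. The hairpins called 1257 of the net genes in 1 direction, 751 up and 506 down, and 53 genes in opposite directions. A further 517 net genes were called by shHIRA I alone, 1437 by shHIRA II alone and 105 by neither alone. Between the hairpins 21% of all genes were called, among them 1032 net genes. The 8 shHIRA and 4 parental libraries did not overlap in 1335 of the net genes and in 1386 of all genes tested.

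Most net genes were ones for which the control hairpins were not called. The control hairpins, taken as their mean minus parental, called 3.62% of all genes. Among the 3316 net genes they had moved the same way in 316 (9.53%), were not called in 2984 (90.0%) and had moved the opposite way in 16 (0.483%). Both contrasts share the parental libraries, so a chance deviation of those libraries enters both alike. The same-way class held more rises than falls, 211 against 105. Its rises had a median log2 fold change of 2.31 in the net contrast and 1.98 for the control hairpins, and its falls one of -0.82 and -0.76. The class without a control call held 1472 rises, with medians of 1.20 and 0.36, and 1512 falls, with medians of -0.75 and -0.12. Not called does not mean unmoved: in 2262 of these 2984 genes the control hairpin difference had the sign of the net change. The shared parental libraries also favour the same sign.

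A direct test of the shHIRA groups against the control hairpin groups divided the classes further. It called 29.3% of all genes. Of the 316 genes that the control hairpins had moved the same way, 236 did not differ from the control hairpins by this test, 66 lay further from parental and 14 fell short of the control hairpins. Of the 2984 genes without a control call, 2085 lay further from parental than the control hairpins and 899 were not called. The choice of these genes favoured such a difference, because their net change was called and their control hairpin change was not. All 16 genes of the opposite class differed from the control hairpins. The choice of the class nearly fixed this, because both opposite changes add up in the direct difference. The control hairpins also changed 158 genes that were not called in the net state, 59 up and 99 down. In 120 of these the direct test called a difference of shHIRA from the control hairpins, opposite in sign to the control hairpin change. The choice of these 158 genes also favoured that result, because their control hairpin change was called and their net change was not. The shHIRA groups are separate from the control hairpin groups, so no return towards parental was measured. In turn 3964 genes were called between shHIRA and control hairpins; 2167 of them were net genes with the same direction, 14 were net genes with the other direction and 1783 were not net genes.

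**Figure D1:**
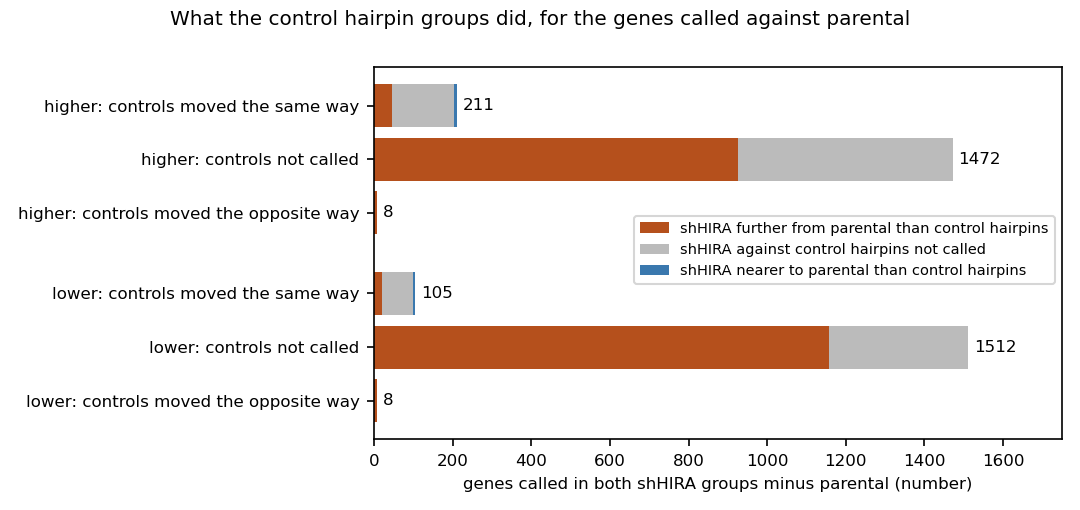
Number of genes called in both shHIRA groups minus parental (horizontal axis), by direction and by what the control hairpin groups did against parental; colours give the direct test of shHIRA against control hairpins. The class without a control call is the longest bar in both directions, with 1472 rises and 1512 falls.

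The sizes of the smaller classes moved with single libraries. Without parental replicate 1, 2, 3 or 4, which leaves fewer parental samples, the same-way class held 164, 151, 150 and 179 genes, and the opposite class 4, 3, 3 and 6. The opposite class held 33 genes without shLuciferase replicate 2 and 29 without shHIRA I replicate 3. It held 6 and 7 without shLuciferase replicates 3 and 4, and 8, 6 and 8 without shScramble replicates 2, 3 and 4. Without shHIRA II replicate 1, 2 or 4 it held 10, 10 and 9.

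Of 5 genes chosen with earlier results in view, 4 rose and 1 fell, and they fell into all 3 classes. Il2rb (chromosome 15, 78479256 to 78495271, minus strand), the beta chain of the interleukin receptors of T and natural killer cells, stood at 0.246, 1.10, 0.881 and 0.411 CPM in parental cells. With control hairpins it ranged from 1.87 to 3.56 CPM, with shHIRA I it was 9.46, 10.6, 8.21 and 4.80, and with shHIRA II 20.7, 12.1, 17.8 and 21.9. Parental, control hairpin and shHIRA libraries followed each other without overlap. The net change was 4.19 ± 0.38 (adjusted p = 2.06e-06), that of the control hairpins 1.90 ± 0.34 (adjusted p = 0.00413) and the difference between them 2.29 ± 0.25 (adjusted p = 3.6e-06). Of the 19 leukocyte genes with a row, 4 were tested, and Il2rb rose while Cd8a, Csf1r and Lyz2 were not called. Lyz2, a lysozyme of myeloid cells, was at 5.55 to 9.48 CPM in parental cells and 4.52 to 13.7 in the shHIRA libraries, and Itgam, an integrin of myeloid cells, at 0 to 0.0614 and 0 to 2.04. The pan-leukocyte gene Ptprc reached at most 0.342 CPM in any shHIRA library, Fcer1a was listed at 0 in all 20, and the part of such cells in the result was not tested. The summed level of the whole list was 7.398 to 12.1 CPM in parental cells, 13.7 to 15.6 with control hairpins, 21.6 to 24.7 with shHIRA I and 22.6 to 30.1 with shHIRA II. This sum includes Il2rb itself, at 12.1 to 21.9 CPM with shHIRA II, so its increase does not show a rise of the other members.

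Stmn4 (chromosome 14, 66344296 to 66361680, plus strand), a stathmin of neurons that binds tubulin, was at 0.246, 1.27, 0.104 and 0 CPM in parental cells and at 0.662 to 2.43 with control hairpins. It was at 8.42, 12.7, 13.5 and 5.24 CPM with shHIRA I and at 15.4, 6.45, 6.98 and 9.77 with shHIRA II, so that every shHIRA library exceeded every other one. It rose by 4.59 ± 0.72 (adjusted p = 0.000217), and the control hairpin difference of 1.51 ± 0.65 was not called (adjusted p = 0.235). Of the list of 20 neuron genes, 6 were tested, 4 rose and none fell, with a median of 1.44. Against the control hairpins 3 of the 6 were higher and 1 was lower. Uchl1, a ubiquitin hydrolase of neurons, rose by 1.94 ± 0.37 (adjusted p = 0.000879), and Dcx, a microtubule protein of young neurons, by 2.43 ± 0.51 (adjusted p = 0.00194). Dcx was at 0.103 to 0.207 CPM in parental cells, at most 0.399 with control hairpins and at 0.274 to 1.57 in the shHIRA libraries. It passed the low-count filter only through the shHIRA libraries, where a fall could not have been seen. Its place among the 4 rises was therefore favoured by the filter. Tubb3, a tubulin of neurons, was at 39.6, 21.8, 25.8 and 22.0 CPM in parental cells, 25.7 to 62.0 with control hairpins, 21.2 to 49.5 with shHIRA I and 74.4 to 87.2 with shHIRA II. It rose by 0.93 ± 0.29 (adjusted p = 0.0228), with the libraries labelled shHIRA II above all others, and the call was lost without parental replicate 2, 3 or 4 (adjusted p = 0.079, 0.0671 and 0.0796). Of the tested members that were not called, Mapt was at 34.7 to 44.8 CPM in parental cells and 27.9 to 75.4 in the shHIRA libraries. Syp, a synaptic vesicle protein, was at 3.90 to 5.22 CPM in parental cells, 3.48 to 9.06 with control hairpins and 1.93 to 5.61 in the shHIRA libraries. Among members not tested, Stmn2 was at 0 in parental and 0.0569 to 1.06 in shHIRA libraries. Snap25 and Nefl reached at most 0.0523 and 0.115 CPM in the shHIRA libraries. The summed level of the whole list was 64.7 to 91.2 CPM in parental cells, 70.8 to 111 with control hairpins and 102 to 141 in the shHIRA libraries. This sum includes Tubb3, Stmn4 and Uchl1, so its increase does not show a rise of the other members.

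Btg2 (chromosome 1, 134075170 to 134079120, minus strand), an antiproliferative early response gene, was at 1.78, 2.86, 2.54 and 2.77 CPM in parental cells and at 2.12 to 5.69 with control hairpins. It was at 27.0, 29.6, 32.4 and 20.9 CPM with shHIRA I and at 12.5, 9.39, 7.54 and 11.6 with shHIRA II. The shHIRA libraries stood above all others, and those of shHIRA I above those of shHIRA II. The net rise was 2.75 ± 0.26 (adjusted p = 2.8e-06) and the control hairpin difference 0.20 ± 0.23 (adjusted p = 0.733). Dusp8 (chromosome 7, 142079490 to 142095843, minus strand), a phosphatase of stress-activated MAP kinases, was at 4.42, 5.50, 4.92 and 8.37 CPM in parental cells and at 3.81 to 10.9 with control hairpins. It was at 56.6, 37.8, 63.4 and 28.9 CPM with shHIRA I and at 25.3, 22.8, 19.9 and 25.3 with shHIRA II, again without overlap. It rose by 2.504 ± 0.31 (adjusted p = 2.47e-05), with a control hairpin difference of 0.06 ± 0.28 (adjusted p = 0.949).

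Nr4a3 (chromosome 4, 48045153 to 48086447, plus strand), an orphan nuclear receptor of the early response, moved the opposite way. It was at 32.5, 32.5, 31.6 and 41.5 CPM in parental cells, 79.5, 52.8, 143 and 87.3 with shLuciferase, and 50.5, 85.9, 88.8 and 117 with shScramble. It was at 3.87, 15.5, 4.65 and 9.80 CPM with shHIRA I and at 3.53, 5.41, 11.1 and 6.46 with shHIRA II. All control hairpin libraries were above parental and all shHIRA libraries below. The control hairpins raised it by 1.35 ± 0.36 (adjusted p = 0.0439), the net state was lower by -2.20 ± 0.33 (adjusted p = 0.000154), and shHIRA stood at -3.55 ± 0.31 against the control hairpins (adjusted p = 3.76e-07).

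**Figure D2:**
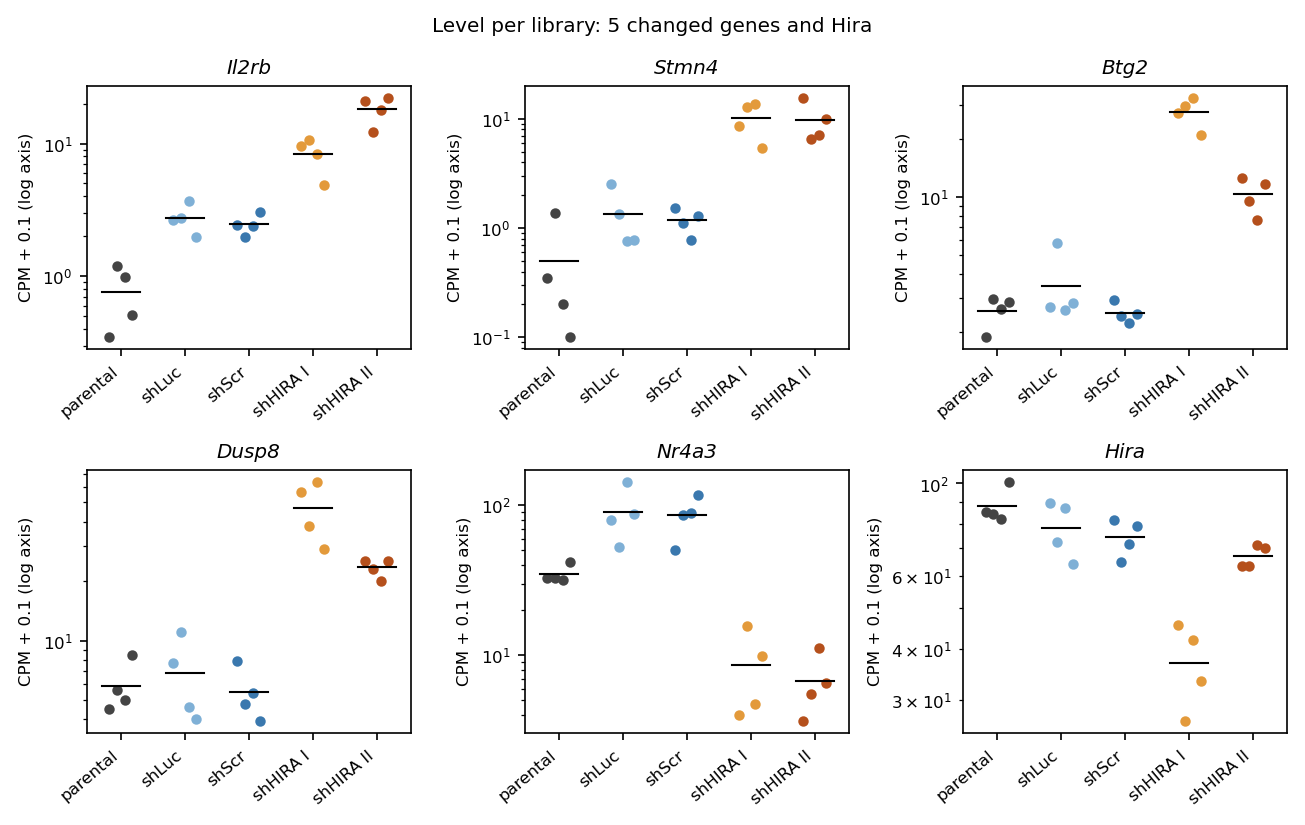
Level of 5 genes and Hira in each library, in CPM with 0.1 added so that zeros can be drawn (log axis); points are libraries and black lines group means, 4 libraries a group. In Nr4a3 the control hairpins stand above parental and both shHIRA groups below; in Hira the libraries labelled shHIRA II overlap those with control hairpins.

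Of 35 tested genes of mitogen-activated protein kinase output and the immediate early response, 15 rose and 4 fell in the net contrast (median 0.69), and 4 rose with control hairpins (median 0.45). Of the 19 net genes, 16 had no control call, among them Btg2 and Dusp8, 1, Nr4a3, had moved the opposite way, and 2, Egr1 and Atf3, the same way. Egr1, a zinc finger factor of the early response, was at 2.41 to 7.005 CPM in parental cells, 15.2 to 30.8 with control hairpins and 21.4 to 70.7 in the shHIRA libraries, with a net rise of 3.26 ± 0.35 (adjusted p = 8.22e-06) of which the control hairpins showed 2.24 ± 0.33 (adjusted p = 0.00146). Atf3, a stress-induced factor of the ATF family, was at 0.155 to 0.369 CPM in parental cells, 1.56 to 4.24 with control hairpins and 3.66 to 23.0 in the shHIRA libraries, a net rise of 5.56 ± 0.53 (adjusted p = 3.04e-06) against 3.49 ± 0.50 for the control hairpins (adjusted p = 0.00113). Both lay further from parental than the control hairpins by the direct test (adjusted p = 0.00382 and 8.64e-05).

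In the interferon response the net change was largely one that the control hairpins already showed. Of 57 interferon-stimulated genes tested, 44 rose and none fell, with a median of 1.57 beside 0.01 over all genes. The control hairpins alone raised 44 and lowered none, with a median of 1.98. Of the 44 net genes, 41 were in the same-way class and 3 had no control call. Against the control hairpins 1 of the 57 was higher and 11 were lower in the shHIRA groups. Usp18 (chromosome 6, 121245906 to 121270917, plus strand), which removes the ubiquitin-like protein ISG15, was at 0.983, 1.38, 1.24 and 1.39 CPM in parental cells, at 42.7, 8.62, 76.3 and 111 with shLuciferase and at 38.4, 109, 104 and 31.4 with shScramble. It was at 16.4, 3.85, 149 and 4.80 CPM with shHIRA I and at 47.9, 175, 143 and 109 with shHIRA II. Every virus-exposed library was above parental, and shHIRA I replicate 3 was far above the other 3 of its group. The net rise was 5.83 ± 1.08 (adjusted p = 0.000771), the control hairpin rise 5.69 ± 1.07 (adjusted p = 0.00553), and the direct difference 0.14 ± 0.61 (adjusted p = 0.888).

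Ifih1, a sensor of double-stranded RNA, was at 1.64 to 3.69 CPM in parental cells, 6.59 to 22.2 with control hairpins and 5.94 to 24.6 in the shHIRA libraries, with a net rise of 2.67 ± 0.40 (adjusted p = 0.000139). Nlrc5, which drives antigen presentation genes of class I, rose by 2.51 ± 0.40 (adjusted p = 0.000235), and its parental maximum of 1.08 CPM was below the lowest shHIRA library at 2.45. Gbp7, a guanylate-binding protein, rose by 2.31 ± 0.38 (adjusted p = 0.000296) and fell short of the control hairpins by -0.93 ± 0.26 (adjusted p = 0.0122). Samhd1, which breaks down nucleotides for DNA synthesis, was the exception among those named: it was at 24.5 to 40.5 CPM in parental cells, 23.2 to 40.8 with control hairpins and 51.0 to 110 in the shHIRA libraries, a net rise of 1.38 ± 0.17 (adjusted p = 2.31e-05) beside a control hairpin difference of -0.08 ± 0.16 (adjusted p = 0.843). Oas1a and Oas1g, synthetases of 2-5A that resemble each other closely so that reads may be divided between them, rose by 6.67 ± 1.53 and 6.17 ± 1.22 (adjusted p = 0.00376 and 0.00128).

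Per library, the median distance of the 57 genes from the parental mean, on the log2 scale of CPM + 0.5, was 0.91, 0.61, 1.88 and 0.47 with shHIRA I, 1.05, 1.99, 2.13 and 1.83 with shHIRA II, and 0.96 to 2.42 with control hairpins. Within shHIRA I the library of highest interferon level was the one of lowest mitochondrial share. Without it 41 of 58 rose in the net contrast with a median of 1.35, close to the count with it.

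The promoters of interferon genes are shown because so many of these genes rose together. RefSeq promoters (GRCm38.p6, 250 bases before to 50 after the start) were matched for 43 of the 57 genes. The core of the interferon-stimulated response element was searched as GAAANNGAAA on both strands with overlapping matches allowed. A gene was counted if any of its promoters matched. The core occurred in 20 of the 43 (46.5%), in 18 of the 33 that were called in the net contrast (54.5%), and in 3.68% of the 9704 tested genes with a promoter. A match describes letters in this window and no measured binding. Capitals mark the match, which covers both of a pair of overlapping matches in Oas1a (chr5:120907476-120907775, minus strand, at -20 and -14 from the start) and 1 match in Gbp7 (chr3:142530086-142530385, plus strand, at -53, read on the opposite strand).
Oas1a: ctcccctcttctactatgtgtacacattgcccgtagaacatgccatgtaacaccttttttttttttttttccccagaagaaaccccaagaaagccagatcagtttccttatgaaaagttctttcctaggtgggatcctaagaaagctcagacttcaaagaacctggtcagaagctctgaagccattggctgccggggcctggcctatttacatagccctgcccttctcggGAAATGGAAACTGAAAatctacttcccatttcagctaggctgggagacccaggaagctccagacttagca
Gbp7: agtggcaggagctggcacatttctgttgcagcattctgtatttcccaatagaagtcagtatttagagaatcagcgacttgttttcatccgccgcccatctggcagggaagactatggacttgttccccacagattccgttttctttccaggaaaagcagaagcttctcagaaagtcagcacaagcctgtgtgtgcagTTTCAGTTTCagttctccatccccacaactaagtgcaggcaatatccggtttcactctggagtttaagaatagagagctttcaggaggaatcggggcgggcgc

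Pigment genes went the other way, and here the control hairpins were mostly not called. Of 27 genes that make melanin or build the melanosome, 18 fell and 2 rose in the net contrast, with a median of -0.91. The control hairpins raised 2 and lowered none (median 0.32). Of the 20 net genes, 18 had no control call, 1 had moved the same way and 1 the opposite way. Against the control hairpins 17 of the 27 were lower and none higher. Dct, dopachrome tautomerase of the melanin pathway, was at 1080, 730, 783 and 627 CPM in parental cells and at 709 to 1406 with control hairpins. It was at 71.7, 217, 196 and 264 CPM with shHIRA I and at 131, 205, 178 and 130 with shHIRA II. All shHIRA libraries lay below all others, a net fall of -2.21 ± 0.26 (adjusted p = 1.47e-05) beside a control hairpin difference of 0.40 ± 0.27 (adjusted p = 0.487).

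Tyr (chromosome 7, 87424771 to 87493512, minus strand), which encodes tyrosinase, the enzyme that starts melanin synthesis, was the pigment gene of the opposite class. It was at 33.3, 33.8, 38.8 and 31.3 CPM in parental cells, 162, 51.1, 309 and 225 with shLuciferase, and 94.4, 268, 242 and 178 with shScramble. It was at 10.5, 52.9, 20.5 and 31.2 CPM with shHIRA I and at 3.47, 9.10, 9.39 and 5.89 with shHIRA II. The control hairpin libraries were all above parental, those labelled shHIRA II all below, and those of shHIRA I overlapped parental. The control hairpins raised Tyr by 2.48 ± 0.46 (adjusted p = 0.00545) and the net state was lower by -1.28 ± 0.40 (adjusted p = 0.0263), with -2.30 ± 0.51 for shHIRA II (adjusted p = 0.00231) and -0.25 ± 0.48 for shHIRA I (adjusted p = 0.775). The hairpins differed by -2.04 ± 0.50 (adjusted p = 0.00728). The net call of Tyr was lost without parental replicate 1, 2 or 3 or shHIRA II replicate 1 (adjusted p = 0.0501 to 0.0672), with the TPM values, with the mitochondrial share as a covariate and against a fold of 1.5 (adjusted p = 0.101, 0.0717 and 0.156), and the adjusted p ranged from 0.00752 to 0.156 over all alternatives. The difference from the control hairpins was -3.75 ± 0.37 (adjusted p = 1.33e-06).

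The other pigment genes with the smallest p were Mreg, Rab27a and Tspan10, each called lower for either hairpin alone (adjusted p from 4.65e-06 to 0.00135). Mreg, melanoregulin, was at 25.3 to 32.4 CPM in parental cells and at 8.36 to 12.8 in the shHIRA libraries, a fall of -1.49 ± 0.15 (adjusted p = 3.77e-06). Rab27a, the small GTPase that links melanosomes to actin motors, was at 229 to 281 CPM and at 27.4 to 115, a fall of -1.88 ± 0.19 (adjusted p = 4.7e-06). Tspan10, a tetraspanin of pigment cells, was at 244 to 370 CPM and at 24.3 to 136, a fall of -2.01 ± 0.22 (adjusted p = 9.38e-06). None of the 3 was called for the control hairpins, whose differences were 0.33, 0.08 and 0.16.

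The M-box is the element through which MITF is known to act on pigment genes, and its hexamer CATGTG was searched on both strands. RefSeq promoters were matched for 22 of the 27 pigment genes, of which 8 held it (36.4%), as did 6 of the 15 that were called (40%) and 10.7% of the tested genes with a promoter. The promoters of 3 genes with lower levels are shown with the hexamer, read on either strand, in capitals. They are Tyr (chr7:87493463-87493762, minus strand, match at -21), Tspan10 (chr11:120442381-120442680, plus strand, match at -21) and Dct (chr14:118052197-118052496, minus strand, matches at -232 and -150).
Tyr: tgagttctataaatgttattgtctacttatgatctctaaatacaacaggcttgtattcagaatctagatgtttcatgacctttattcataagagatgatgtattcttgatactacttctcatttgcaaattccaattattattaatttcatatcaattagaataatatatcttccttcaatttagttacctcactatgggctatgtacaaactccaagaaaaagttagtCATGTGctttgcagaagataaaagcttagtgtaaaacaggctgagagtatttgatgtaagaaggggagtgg
Tspan10: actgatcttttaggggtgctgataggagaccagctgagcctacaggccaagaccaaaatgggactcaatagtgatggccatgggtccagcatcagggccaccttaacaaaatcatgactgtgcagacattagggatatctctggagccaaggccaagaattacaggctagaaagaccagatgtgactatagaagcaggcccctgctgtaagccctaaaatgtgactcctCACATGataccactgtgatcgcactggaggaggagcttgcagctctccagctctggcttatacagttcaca
Dct: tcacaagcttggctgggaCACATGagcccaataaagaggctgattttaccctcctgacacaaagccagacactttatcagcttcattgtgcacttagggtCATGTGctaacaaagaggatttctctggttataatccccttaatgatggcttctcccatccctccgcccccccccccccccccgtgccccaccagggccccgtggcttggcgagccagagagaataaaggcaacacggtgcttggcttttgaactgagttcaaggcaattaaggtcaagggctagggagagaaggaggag

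**Figure D3:**
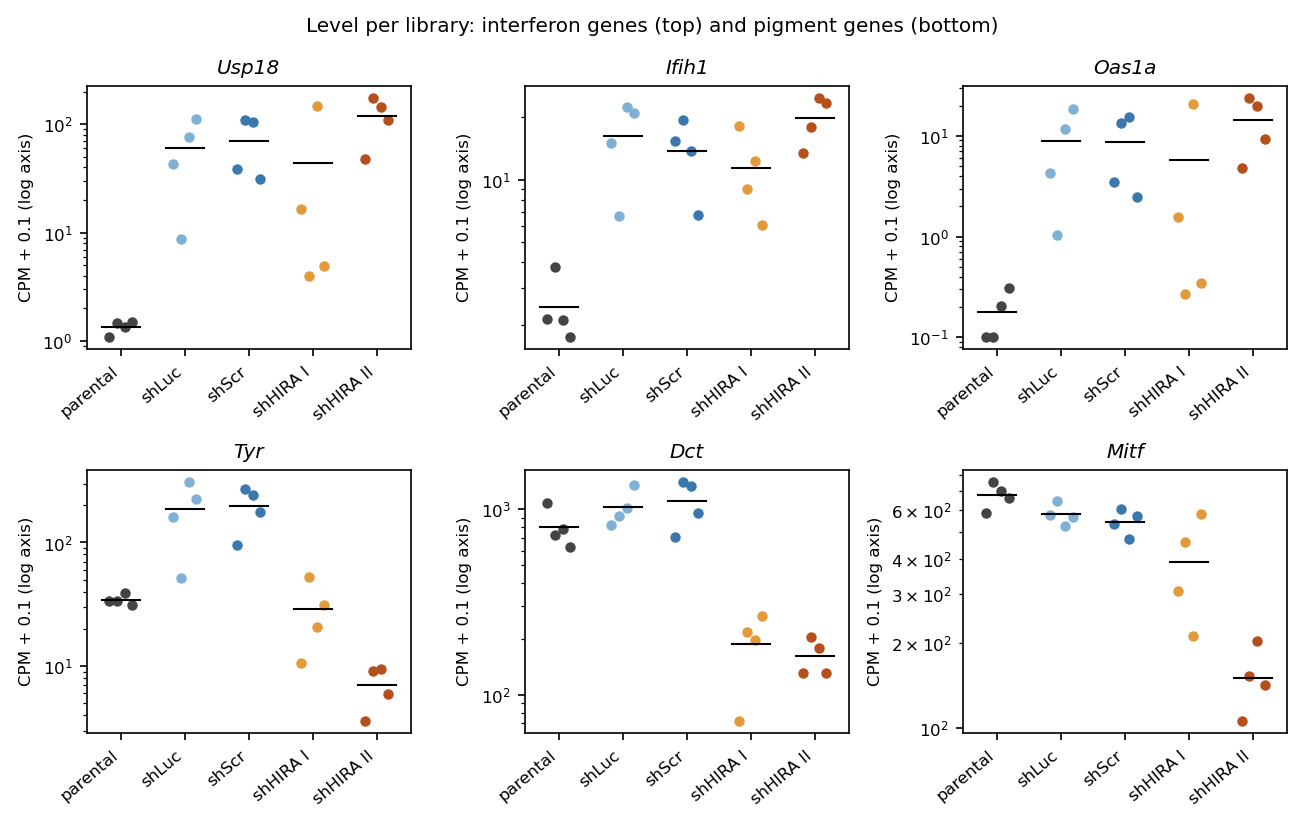
Level of 3 interferon genes (top) and 3 genes of pigment cells (bottom) in each library, in CPM with 0.1 added (log axis); points are libraries and black lines group means, 4 libraries a group. Usp18 and Ifih1 stand above parental in all 16 virus-exposed libraries, Oas1a in 15 of them with shHIRA I replicate 2 at 0.167 CPM beside a parental maximum of 0.206, and Dct lies below every parental library in the 8 shHIRA libraries.

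The labelled cell type was checked on 10 melanoblast genes. Of the 9 tested, 8 fell and none rose in the net contrast, with a median of -1.80, and the control hairpins raised 1, Tyr. Ednrb, an endothelin receptor, was listed at 0 in 17 libraries and was not tested. Mitf was at 586, 754, 700 and 662 CPM in parental cells, at 471 to 645 with control hairpins, at 308, 458, 212 and 579 with shHIRA I and at 105, 153, 203 and 142 with shHIRA II. It was lowest in the libraries labelled shHIRA II, with a net fall of -1.48 ± 0.19 (adjusted p = 4.9e-05). Kit, the receptor of stem cell factor, was at 400 to 577 CPM in parental cells, at 92.4 to 363 with shHIRA I and at 52.1 to 147 with shHIRA II, a net fall of -1.80 ± 0.27 (adjusted p = 0.00015). Pax3, which acts upstream of Mitf, was not called (0.17 ± 0.14, adjusted p = 0.403), at 113 to 147 CPM in parental cells and 108 to 189 in the shHIRA libraries. Pmel, the fibril protein of the melanosome, fell by 2.18 ± 0.29 on the log2 scale (adjusted p = 5.13e-05), Tyrp1, a further enzyme of melanin synthesis, by 2.25 ± 0.39 (adjusted p = 0.000433) and Mlana, a melanosome membrane protein, by 0.96 ± 0.20 (adjusted p = 0.00185). The fall of Tyrp1 and Mlana was called for shHIRA II alone and not for shHIRA I alone (adjusted p = 0.212 and 0.0939), and the hairpins differed by -2.72 ± 0.49 and -0.73 ± 0.24 (shHIRA II minus shHIRA I, adjusted p = 0.00089 and 0.0345). Sox10 read 29.8 CPM in parental replicate 3 and 0.154 to 0.246 in the other 3 parental libraries, and 16.7 and 18.3 in shScramble replicates 1 and 2, so its call (-4.03 ± 1.22, adjusted p = 0.0214) rested on 1 library and turned to 1.12 (adjusted p = 0.589) without it.

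Among the wider list of melanocyte regulators, 9 of 17 tested fell and 1 rose (median -0.80), and none was called for the control hairpins. Irf4, which acts with MITF on Tyr, fell from 15.6 to 19.8 CPM in parental cells to 3.58 to 8.52 in the shHIRA libraries (-1.52 ± 0.20, adjusted p = 4.86e-05). Bhlhe40, a repressor of the basic helix-loop-helix class, fell by 1.11 ± 0.16 on the log2 scale (adjusted p = 9.51e-05). The gene that rose was Tfap2b, an AP-2 factor, at 19.0 to 43.7 CPM in parental cells and 51.7 to 150 in the shHIRA libraries (1.61 ± 0.21, adjusted p = 5.33e-05). Of 11 neural crest and melanocyte stem cell genes tested, 4 rose and 4 fell. Foxd3, a forkhead factor of the neural crest, fell by 1.08 ± 0.19 on the log2 scale (adjusted p = 0.000514).

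The opposite class held 8 rises and 8 falls. Beside Nr4a3 and Tyr, the falls included Mgll, a monoacylglycerol lipase, at 242 to 361 CPM in parental cells, 351 to 846 with control hairpins and 61.2 to 225 in the shHIRA libraries (net -1.40 ± 0.24, adjusted p = 0.000385; control hairpins 1.13 ± 0.26, adjusted p = 0.0186). Cttnbp2, a cortactin-binding protein, fell by 1.15 ± 0.16 on the log2 scale in the net contrast (adjusted p = 9.04e-05), and this was called for shHIRA II (-1.997 ± 0.20, adjusted p = 4.65e-06) and not for shHIRA I (-0.31 ± 0.20, adjusted p = 0.314), with a difference between hairpins of -1.69 ± 0.20 (adjusted p = 3.49e-05). Among the rises, Aldh1a1, which makes retinoic acid, was at 1.41 to 6.42 CPM in parental cells, 0.512 to 2.62 with control hairpins and 9.60 to 30.4 in the shHIRA libraries (net 1.94 ± 0.41, adjusted p = 0.00223). Its close paralog Aldh1a7, with which reads may be shared, rose by 1.42 ± 0.34 (adjusted p = 0.0053). Mmd, a membrane protein of maturing macrophages, was at 28.3 to 30.9 CPM in parental cells, 18.1 to 24.4 with control hairpins and 41.2 to 62.8 in the shHIRA libraries (net 0.82 ± 0.11, adjusted p = 6.13e-05; control hairpins -0.49 ± 0.11, adjusted p = 0.014). Fhl3, a LIM protein of muscle, rose by 0.68 ± 0.18 (adjusted p = 0.0104).

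Predicted genes aside, the falls named here were the largest among genes called lower with each hairpin and without overlap between shHIRA and parental libraries. The control hairpins had left them uncalled, with 1 exception. Prb1, a proline-rich salivary protein, was at 38.0, 93.3, 97.2 and 14.4 CPM in parental cells, at 5.99 to 126 with control hairpins, at 0, 3.35, 0 and 0.495 with shHIRA I and at 0.114, 0.979, 1.64 and 0.449 with shHIRA II. By the condition of choice no shHIRA library reached the lowest parental one, and the fall was -6.09 ± 0.79 (adjusted p = 4.52e-05). Rxrg, a retinoid X receptor, Lcn8, a lipocalin, Eef1a2, an elongation factor of nerve and muscle, Ntsr1, a neurotensin receptor, and Gjb1, a connexin, fell by 3.18, 2.82, 2.67, 2.51 and 2.28 on the log2 scale, with SE from 0.27 to 0.51 and adjusted p from 1.74e-05 to 0.000964. Aqp1, a water channel, was at 55.0 to 168 CPM in parental cells and at 13.6 to 36.8 in the shHIRA libraries (-2.55 ± 0.20, adjusted p = 6.48e-07). The exception was Ngef, a guanine nucleotide exchange factor, which was at 5.19 to 11.6 CPM in parental cells, 3.86 to 6.36 with control hairpins and 0.739 to 1.98 in the shHIRA libraries. It fell by 2.80 ± 0.21 on the log2 scale in the net contrast (adjusted p = 6.48e-07) and by 0.80 ± 0.21 with control hairpins (adjusted p = 0.0409).

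Other falls of the same-way class were those of Myb, Doc2g, Itgb3 and Cyp2d22. Myb, a transcription factor of progenitor cells, was at 37.4, 123, 116 and 52.97 CPM in parental cells, 18.2 to 30.1 with control hairpins and 6.23 to 50.3 in the shHIRA libraries, which overlapped parental. Its net fall of -2.47 ± 0.36 (adjusted p = 0.000101) did not differ from that of the control hairpins, -1.78 ± 0.36, by the direct test (adjusted p = 0.0954). Itgb3, the integrin beta chain of the vitronectin receptor, was at 48.4 to 55.9 CPM in parental cells, 27.9 to 41.0 with control hairpins and 12.1 to 25.7 in the shHIRA libraries, a stepwise order without overlap (net -1.59 ± 0.13, adjusted p = 9.05e-07). Doc2g, a protein with calcium-binding domains, fell by 2.15 ± 0.20 on the log2 scale (adjusted p = 2.8e-06) and Cyp2d22, a cytochrome P450, by 1.53 ± 0.21 (adjusted p = 8.23e-05).

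Predicted genes aside, the rises named here were the largest among genes called higher with each hairpin and without overlap between shHIRA and parental libraries. They had no count, or 1, in parental cells. Their folds are therefore lower bounds against a floor of 3 counts per library, which is 0.165 CPM. Ms4a4d, a membrane protein of the MS4A family, was at 6.74, 5.41, 3.28 and 2.13 CPM with shHIRA I and at 0.398, 0.806, 1.03 and 1.40 with shHIRA II, on average at least 16.1-fold higher. Slco2b1, a carrier of organic anions, was at least 9.31-fold higher, Mettl7b, a methyltransferase, at least 7.27-fold, and Klrb1a, a lectin-like receptor of natural killer cells, at least 4.48-fold. Tmem92, BB287469 and Zscan4c, a zinc finger gene of the early embryo, were at least 7.78-fold, 10.7-fold and 5.75-fold higher. Ifi44, an interferon-induced gene, had 1 parental count and 693 counts in the shHIRA libraries, a ratio of 352 per depth with a 95% counting interval of 63.0 to 13924, which covers counting error only. Of these 8, edgeR also called Ms4a4d, Ifi44, Slco2b1, Tmem92 and Klrb1a higher with control hairpins, but the mean of Ms4a4d there was 0.101 CPM, under the floor. BB287469 and Zscan4c had control hairpin means of 0.316 and 0.579 CPM and were not called (adjusted p = 0.127 and 0.0918). Mettl7b was listed at 0 in 5 of the 8 control hairpin libraries, with a maximum of 0.149 CPM, beside 0.099 to 0.471 with shHIRA I and 1.49 to 2.96 with shHIRA II. Ms4a4d and Mettl7b passed the low-count filter only through the shHIRA libraries, where a fall could not have been seen.

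The rule for named genes also picked rows whose counts were erratic. Rpl35a-ps2 had the same values in every library as 4 other rows, 5 in all. It was at 101 CPM in shHIRA I replicate 3, 24.4 and 39.1 in shHIRA II replicates 1 and 2, and at most 1.58 in the other 17 libraries, and its call was lost without any parental library or without shHIRA I replicate 3 (adjusted p = 0.0506 to 0.067). Pck2, a mitochondrial enzyme of glucose synthesis, was at 13.4 to 23.2 CPM in parental cells, 0 to 25.3 with control hairpins and 0 to 5.52 in the shHIRA libraries (-4.31 ± 0.92, adjusted p = 0.00239). Akap13, an anchor of kinase A, ranged from 0 to 30.3 CPM within the shHIRA libraries, and its call (adjusted p = 0.0334) was lost without parental replicate 2 or 3 or shHIRA II replicate 1, 3 or 4 (adjusted p = 0.0598 to 0.0726).

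Cholesterol and lipid synthesis was lower as a group. Of 29 genes tested, 24 fell and none rose, with a median of -0.88 beside 0.01 over all genes. The control hairpins lowered 3 of the 29 (median -0.37), so 21 of the 24 had no control call, and 20 of the 29 were lower than with control hairpins. The medians per hairpin were -0.60 for shHIRA I, with 13 falls, and -1.23 for shHIRA II, with 24. Insig1, the brake on sterol sensing whose own transcript follows it, was at 227, 237, 237 and 233 CPM in parental cells, 177 to 242 with control hairpins, 111, 164, 151 and 158 with shHIRA I and 48.7, 58.9, 67.5 and 55.3 with shHIRA II. The 3 sets of libraries formed steps without overlap from controls to shHIRA I to shHIRA II, and the net fall was -1.35 ± 0.11 (adjusted p = 9.05e-07). Scd2, a fatty acid desaturase, fell by 1.98 ± 0.22 on the log2 scale (adjusted p = 1.1e-05). Sqle, an enzyme of the sterol pathway, fell by 0.88 ± 0.12 on the log2 scale (adjusted p = 5.3e-05), and it had already fallen with control hairpins (-0.44 ± 0.12, adjusted p = 0.0444).

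**Figure D4:**
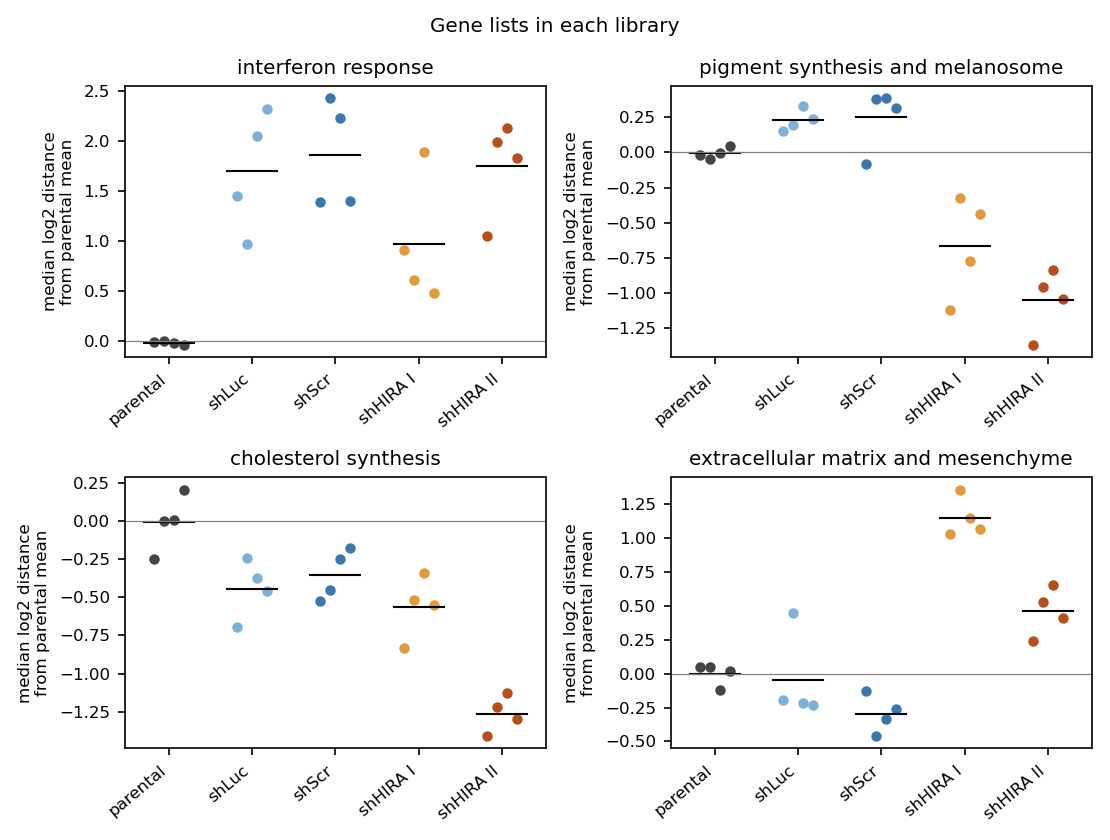
Median over the tested members of 4 gene lists of the log2 distance from the parental mean, on CPM + 0.5 (vertical axis), in each library; black lines are means of the 4 libraries of a group. Interferon genes lie above parental in all 16 virus-exposed libraries, with shHIRA I replicates 1, 2 and 4 at 0.91, 0.61 and 0.47, below the lowest control hairpin library at 0.96; pigment genes are low in shHIRA libraries, cholesterol genes are lowest in shHIRA II and matrix genes highest in shHIRA I.

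Matrix and mesenchyme genes rose in part, with more calls for shHIRA I than for shHIRA II. Of 32 tested, 13 rose and 3 fell in the net contrast (median 0.86). For shHIRA I 18 rose (median 1.42) and for shHIRA II 9 (median 0.63), and 1 rose with control hairpins (median -0.02). Among the tested, Myl9 reached at most 0.311 CPM in parental cells and 0.381 with control hairpins. It passed the low-count filter only through the shHIRA libraries. Col5a1, a fibrillar collagen chain, was at 32.9, 41.6, 30.0 and 40.3 CPM in parental cells, 21.9 to 83.2 with control hairpins, 247, 145, 247 and 140 with shHIRA I and 95.4, 75.2, 84.9 and 85.5 with shHIRA II. All shHIRA libraries exceeded parental, and shHIRA I exceeded shHIRA II (net 1.83 ± 0.29, adjusted p = 0.000213; shHIRA II minus shHIRA I -1.19 ± 0.31, adjusted p = 0.00932). Tagln, an actin-binding protein of smooth muscle, rose by 2.29 ± 0.35 (adjusted p = 0.000169) and Ctgf, a matricellular factor, by 2.08 ± 0.40 (adjusted p = 0.00116). Thbs2, a thrombospondin, was at 0 to 0.206 CPM in parental cells, 0.149 to 3.44 with control hairpins and 0.613 to 13.5 in the shHIRA libraries, a net rise of 5.86 ± 0.99 (adjusted p = 0.000388) beside 4.27 ± 0.96 with control hairpins (adjusted p = 0.0175). The summed level of the whole list was 4432 to 4652 CPM in parental cells, 3290 to 5096 with control hairpins, 5173 to 5849 with shHIRA I and 3306 to 3613 with shHIRA II. Among genes that mark fibroblasts, Fn1 was at 79.8 to 209 CPM in parental cells and 291 to 1246 in the shHIRA libraries, Postn at 20.4 to 40.7 and 20.2 to 457, Col1a1 at 0.514 to 1.97 and 1.80 to 25.5, Col1a2 at 26.0 to 39.1 and 7.39 to 122, and Dcn at 17.6 to 32.6 and 2.9003 to 99.7. Vim was at 2214 to 2656 CPM in parental cells and lower, at 1026 to 1657, in the shHIRA libraries. Fbln1, among the called genes of the list, was at 275 to 475 CPM in parental cells and 86.0 to 355 in the shHIRA libraries. Col3a1 reached at most 0.0614 CPM in parental and 1.12 in shHIRA libraries. The part of such cells in the result was not tested.

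Growth arrest and stress genes rose in part with the control hairpins. Of 25 p53 targets tested, 9 rose and 5 fell (median 0.36), and 2 rose with control hairpins. Over all genes tested 12.5% rose, 12% fell and 3.62% were called for the control hairpins, against which these and the other list counts are to be read. Of 12 tested among cell cycle inhibitors and secreted factors of senescence, 7 rose and 1 fell (median 1.06), and 3 rose with control hairpins. Igfbp4, a binding protein of insulin-like growth factors, was at 0.565 to 1.41 CPM in parental cells, 2.02 to 6.26 with control hairpins, 1.83 to 10.1 with shHIRA I and 21.8 to 28.2 with shHIRA II (net 3.48 ± 0.44, adjusted p = 3.07e-05). Csf1, the growth factor of macrophages, rose by 1.25 ± 0.21 (adjusted p = 0.000434) with no control call. Of 29 genes of the amino acid and unfolded protein stress responses, 11 rose and 3 fell (median 0.29), and 6 rose with control hairpins. Chac1, which degrades glutathione, was at 1.55 to 3.26 CPM in parental cells, 4.31 to 28.0 with control hairpins, 4.07 to 14.9 with shHIRA I and 36.5 to 46.9 with shHIRA II (net 3.02 ± 0.46, adjusted p = 0.00017; direct difference 0.33 ± 0.31, adjusted p = 0.461). Ddit3, Sesn2 and Gadd45a, stress genes of these pathways, rose by 1.32 ± 0.20, 1.88 ± 0.27 and 1.34 ± 0.23 (adjusted p = 0.000175, 0.00011 and 0.000388), and each had risen with control hairpins without a called direct difference.

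Cell cycle genes showed small net changes. Of 45 S phase genes, 1 fell and none rose in the net contrast (median -0.14). The control hairpins lowered 4 (median -0.59), and against them 15 were higher and 1 lower in the shHIRA groups. Libraries of 1 group differed: the median distance of the list from the parental mean was -0.03 in shLuciferase replicate 1 and 0.02 in shScramble replicate 1, beside -1.45 to -0.66 in the other 6 control hairpin libraries, and -1.15 in shHIRA I replicate 2 beside -0.29 to 0.15 in the other 7 shHIRA libraries. Of 49 genes of G2 and mitosis, 6 fell and none rose (median -0.46; control hairpins 0 called, median -0.41), with a median distance of -1.61 in shHIRA I replicate 2 and 0.23 in replicate 1. The 6 became 2, 1, 3 and 1 without parental replicates 1, 2, 3 and 4, 2, 3 and 2 without shHIRA II replicates 1, 2 and 4, 10 without shHIRA I replicate 1, and 0 with the TPM values. Mki67, a marker of cycling cells, was at 472 to 658 CPM in parental cells, 165 to 635 with control hairpins and 43.7 to 373 in the shHIRA libraries (-1.24 ± 0.38, adjusted p = 0.0239). Anln, a scaffold of cell division, and Ccnb2, a mitotic cyclin, fell by 0.94 ± 0.29 and 0.88 ± 0.28 on the log2 scale (adjusted p = 0.0243 and 0.028). None of the 3 differed from the control hairpins by the direct test. Their net calls were lost without parental replicate 1 for Ccnb2, 2 for Mki67 and Anln and 4 for Anln and Ccnb2, and that of Ccnb2 also without shHIRA II replicate 1 or 4 (adjusted p = 0.0505 to 0.0971).

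Part of the replication-dependent histone genes rose in the poly(A) fraction. Of 28 tested, 14 rose and none fell (median 1.22), and 9 rose with control hairpins (median 1.11), with 8 genes in both. For shHIRA I alone 4 rose and for shHIRA II alone 16. The summed level of the tested genes in shHIRA I replicate 4, 95.3 CPM, lay within the parental range of 80.7 to 112. Hist1h1c, a linker histone, was at 3.60 to 6.37 CPM in parental cells, 11.98 to 33.3 with control hairpins, 6.59 to 22.5 with shHIRA I and 23.2 to 39.7 with shHIRA II (net 2.06 ± 0.36, adjusted p = 0.000535; control hairpins 2.29 ± 0.37, adjusted p = 0.00221). Hist1h4h, a core H4 gene, was at 0 to 0.206 CPM in parental cells and at 0.261 to 1.82 in the shHIRA libraries (3.04 ± 0.63, adjusted p = 0.00179). Some genes of the list are near-identical copies of each other, among which the counting may have divided reads.

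Lysosome genes showed few net calls, while the count for oxidative phosphorylation depended on the libraries used and on the mitochondrial share. Of 29 lysosome genes tested, 1 rose and 3 fell (median -0.10, which turned to 0.06 with the TPM values); the control hairpins raised 2 (median 0.25), and against them 14 were lower. Psap, the precursor of activators of lipid breakdown, was at 976, 1015, 976 and 997 CPM in parental cells, 332, 525, 663 and 523 with shHIRA I and 527, 688, 664 and 623 with shHIRA II, without overlap (-0.81 ± 0.16, adjusted p = 0.00116). Neu1, a sialidase, rose by 0.87 ± 0.21 (adjusted p = 0.00595). Of 48 nuclear genes of oxidative phosphorylation, 8 fell and none rose (median -0.20), and none was called for the control hairpins. Ndufa4, a subunit of the respiratory chain, was at 159 to 213 CPM in parental cells, 93.0 to 194 with control hairpins and 34.5 to 100 in the shHIRA libraries (-1.45 ± 0.17, adjusted p = 1.74e-05), and Ndufs8 and Cox6b1, subunits of complexes I and IV, fell by 1.21 ± 0.15 and 0.70 ± 0.14 on the log2 scale (adjusted p = 3.7e-05 and 0.00162). The count of 8 moved with the libraries of low mitochondrial share: it was 24 without shHIRA I replicate 3, 34 without that library and shHIRA II replicate 2, and 28 with the share as a covariate.

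Schwann cell and glia genes, which share the neural crest origin of melanocytes, were lower in part. Of 17 tested, 8 fell and 3 rose (median -0.81), and none was called for the control hairpins (median -0.08). Among the tested, Pmp22 reached at most 0.184 CPM in parental cells and 0.435 with control hairpins. It passed the low-count filter only through the shHIRA libraries. Mbp, a myelin protein, was at 134 to 165 CPM in parental cells, 87.7 to 139 with control hairpins and 30.7 to 91.1 in the shHIRA libraries (-1.41 ± 0.20, adjusted p = 7.55e-05). Prx, a scaffold of myelinating Schwann cells, went the other way, from 5.59 to 13.0 CPM in parental cells to 14.2 to 38.7 in the shHIRA libraries (1.43 ± 0.30, adjusted p = 0.00184). The summed level of the whole list was 1176 to 1376 CPM in parental cells, 892 to 1451 with control hairpins, 501 to 1144 with shHIRA I and 622 to 656 with shHIRA II.

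**Figure D5:**
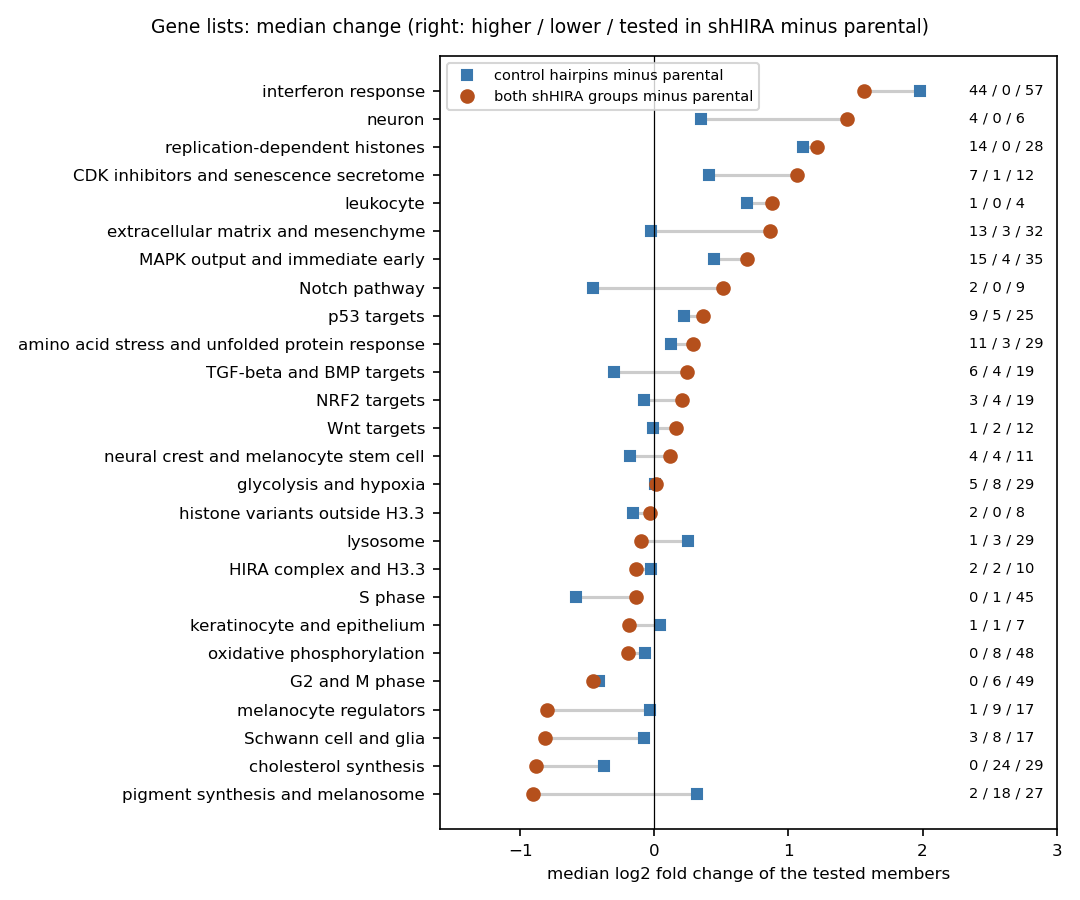
Median log2 fold change of the tested members of 26 gene lists against parental (horizontal axis), for both shHIRA groups (circles) and for the control hairpins (squares); numbers at the right give genes that rose, fell and were tested in the shHIRA contrast. Circle and square stand at 1.57 and 1.98 for interferon genes and at 1.22 and 1.11 for histones, but at -0.91 and 0.32 for pigment genes.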

How the data were processed

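Poly(A) RNA of 20 melb-a libraries, 4 in each of 5 groups, had been sequenced. The deposited tables hold estimated counts per gene and TPM values, and the submitters' processing notes name bcl2fastq, kallisto, edgeR and mm10 without their order. Other steps are not stated. The deposited expected counts were rounded to whole numbers. edgeR 4.0.16 in R 4.3.3 (TMM scaling, filterByExpr, quasi-likelihood F test on group means over all 20 libraries) gave log2 fold changes with SE and Benjamini-Hochberg adjusted p-values, called under 0.05. The authors' TPM values entered limma 3.58.1 as log2(TPM + 1), an alternative, as did DESeq2 1.42.0. Depth was 14952948 to 20669874 counts per library, and counting intervals and floors cover counting error only. Of the rows, 27 were named by a spreadsheet date. Positions are from GENCODE on GRCm38. The edgeR fit was tested on simulated data.

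Members and lists were chosen with earlier results of these data known. Named genes were Hira, the 5 markers, and the 8 largest net rises and falls. Added were 4 per class and direction with a mean of at least 5 CPM, and the melanoblast genes. Up to 4 called members of each list with the smallest p were also named. The 8 rises and falls had to be called in that direction with each hairpin, without overlap between shHIRA and parental libraries. Predicted genes and date names were left out there and among the 4 per class. Some named genes are not printed. Alternatives were other scalings, filters and tools, a replicate block, the mitochondrial share as a covariate, a fold of 1.5, other rules for a control hairpin call, and each library left out.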

Additional observations from a re-analysis of the deposited data

Results flagged for a closer look

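Of 288 sets of 4 libraries tested, 22 held a library far from the other 3 of its group, and chance gives about 5% of such sets. That rate does not hold for low counts. Where the other 3 libraries read 0, any count is flagged, as for Ifi44 and Rpl35a-ps2 in parental cells and Pck2 with shHIRA II. The library labelled shHIRA II replicate 2 stood apart for the share of mitochondrial mRNA at 2.88% (others 4.45 to 4.71) and Akap13 at 1.15 CPM (others 0 to 0.171). The library labelled parental replicate 4 stood apart for Nr4a3 at 41.5 CPM (others 31.6 to 32.5), Lcn8 at 8.22 CPM (others 11 to 11.2) and Rpl35a-ps2 at 0.206 CPM (others 0). The library labelled parental replicate 3 stood apart for Ifi44 at 0.0518 CPM (others 0), Csf1 at 55.9 CPM (others 66 to 67.2) and Sox10 at 29.8 CPM (others 0.154 to 0.246). The library labelled shHIRA I replicate 3 stood apart for Ifi44 at 10.4 CPM (others 0.198 to 1.25), Tmem92 at 3.35 CPM (others 0.112 to 0.643), Oas1a at 20.8 CPM (others 0.167 to 1.46), Oas1g at 13.8 CPM (others 0.643 to 1.93), Usp18 at 149 CPM (others 3.85 to 16.4) and Rpl35a-ps2 at 101 CPM (others 0 to 1.58). The library labelled shHIRA I replicate 2 stood apart for Prb1 at 3.35 CPM (others 0 to 0.495). The library labelled shHIRA II replicate 3 stood apart for Rxrg at 1.33 CPM (others 0.227 to 0.393), Pck2 at 1.13 CPM (others 0), Anln at 187 CPM (others 144 to 150) and Gbp7 at 7.18 CPM (others 3.64 to 4.1). The library labelled parental replicate 1 stood apart for Doc2g at 94.1 CPM (others 59.5 to 64.9). The library labelled shHIRA II replicate 4 stood apart for Fhl3 at 33.3 CPM (others 29.4 to 29.9). The library labelled parental replicate 2 stood apart for Daxx at 34.3 CPM (others 38.8 to 39.2).

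Between the hairpins, 41 of the 95 named genes differed (shHIRA II minus shHIRA I, log2 fold change, edgeR quasi-likelihood test with Benjamini-Hochberg adjustment, adjusted p from 6.37e-06 to 0.0492). Lower in the libraries labelled shHIRA II were Akap13 at -5.38, Tyrp1 at -2.72, Ms4a4d at -2.26, Tyr at -2.04, Pmel at -1.75, Cttnbp2 at -1.69 and Myb at -1.59. Also lower there were Uchl1 at -1.54, Btg2 at -1.42, Mitf at -1.37, Insig1 at -1.34, Kit at -1.28, Col5a1 at -1.19 and Aldh1a7 at -1.18. Smaller differences of that sign were those of Gjb1 at -1.07, Tspan10 at -1.07, Aqp1 at -1.03, Mgll at -1.02, Dusp8 at -0.999, Rab27a at -0.91 and Tfap2b at -0.89. Closest to 0 among the lower ones were Ngef at -0.85, Foxd3 at -0.74, Mlana at -0.73, Ndufa4 at -0.66, Sqle at -0.66 and H3f3a at -0.39. Higher in the libraries labelled shHIRA II were Samhd1 at 0.69, Hira at 0.86, Daxx at 0.90, Sesn2 at 1.04, Gbp7 at 1.07, Tagln at 1.11 and Ddit3 at 1.13. The further higher ones were Il2rb at 1.13, Hist1h1c at 1.14, Tubb3 at 1.27, Pmepa1 at 1.47, Igfbp4 at 2.24, Chac1 at 2.32 and Mettl7b at 3.08.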

How the results depend on the processing

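Under the alternatives tried, the net counts kept within 1.5 times of the reported ones except that 806 fell with limma on log2(TPM + 1), and that 602 rose and 281 fell against a fold of 1.5, where 63, 819 and 1 genes were in the same-way, uncalled and opposite classes and both hairpins called 361. The same-way class held 531 genes with DESeq2, 199 with TPM, 1022 with control hairpins at an unadjusted p under 0.05 and 114 with both control hairpins required. The opposite class held 8 without a low-count filter, 35 with DESeq2, 10 with TPM, 87 at an unadjusted p and 3 with both control hairpins required. Without the 2 libraries of lowest mitochondrial share, an alternative chosen after seeing the data, these classes held 495 and 32. Replicate numbers were not taken to pair the samples. Of 40 pairs of libraries with the same number, with correlations from -0.31 to 0.42, 17 were over 0.1, and 3 of the 8 between parental and shHIRA. Highest were shLuciferase with shHIRA I in replicate 2 (0.42) and shLuciferase with shScramble in replicate 1 (0.41). In replicate 1 each of these control hairpins also stood at 0.36 with shHIRA I. The main fit took no account of such links. With a replicate block 1797 rose, 1876 fell and the opposite class held 26. Leaving out 1 library at a time gave 1184 to 1877 rises, 1239 to 1978 falls, 150 to 464 same-way, 2293 to 3394 uncalled and 3 to 33 opposite genes, 889 to 1471 genes called by both hairpins, and a mitochondrial difference of -2.89 to -1.66 percentage points, with an exact permutation p of 0.0182 without shHIRA I replicate 2. Sox10 ranged from -5.08 to 1.12 with 1 library left out, the latter without parental replicate 3. Over the 94 named genes called, 1854 calls were kept and 26 lost, that of Sox10 with a turn of sign, when 1 library was left out, and 891 were kept and 40 lost under the other alternatives. Most of these genes were picked from these data for a large change or a small p, so these counts do not carry over to other net genes. Genes under about 1 CPM rest on few counts, and their folds are imprecise.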

Other observations

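Signalling lists held a few further net changes. Of 19 TGF-beta and BMP targets tested, 6 rose and 4 fell (median 0.24, beside 0.01 over all genes; it turned to -0.05 once mitochondrial share entered the fit), where 12.5% and 12% of all genes did. Pmepa1, a brake on TGF-beta signalling, was at 63.3 to 97.6 CPM in parental cells, 17.98 to 68.8 with control hairpins, 4.41 to 16.0 with shHIRA I and 22.5 to 33.3 with shHIRA II, a net fall of -2.15 ± 0.28 (edgeR, adjusted p = 4.49e-05). Bambi, a decoy receptor of the same family, rose by 0.93 ± 0.16 (edgeR, adjusted p = 0.00038). Of 9 Notch genes, 2 rose and none fell. Dll1, a Notch ligand, was at 5.96 to 13.1 CPM in parental cells and at 13.3 to 41.6 in the shHIRA libraries (1.15 ± 0.31, edgeR adjusted p = 0.0123), and its call was lost without parental replicate 4 (adjusted p = 0.054).

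Other lists moved little or in both directions. Of 12 Wnt targets, 1 rose and 2 fell, of 29 genes of glycolysis and hypoxia 5 rose and 8 fell, and of 19 NRF2 targets 3 rose and 4 fell. Of 8 histone variants outside H3.3, 2 rose and none fell, and of 7 keratinocyte and epithelium genes 1 rose and 1 fell. The rise was that of Grhl2, at most 0.154 CPM in parental cells and 0.455 with control hairpins. It passed the low-count filter only through the shHIRA libraries, where a fall could not have been seen.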
